A study of Homo sapiens with 7 samples.

Results

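The regions described here are the 443 RIP-seq sites of RBM15 that the deposited site list places in 3' untranslated regions (3'UTRs), out of 1515 sites in all. A site was a member when its deposited annotation was exactly utr3 (427 sites) or utr3* (16 sites). The other large classes in the list were introns with 752 sites, positions outside RefSeq genes with 213 and coding sequence with 87. No read count entered the choice of members. The whole list, however, had been selected by the study for significantly more reads with the anti-RBM15 antibody than with normal IgG. The direction of that difference is therefore not a finding, and its size was in part selected too.

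RBM15 is an RNA-binding protein of the spen family, with RNA recognition motifs at its N-terminal side and a SPOC domain at its C-terminal side, and it associates with the complex that places N6-methyladenosine (m6A) on messenger RNA. The 3'UTR is the untranslated stretch between the stop codon and the poly(A) tail. It carries signals for cleavage and polyadenylation and is bound by proteins and microRNAs that set the stability, translation and localisation of a messenger RNA.

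RIP-seq sequences the RNA that an antibody pulls down with its protein, here from formaldehyde cross-linked and sonicated MEG-01 cells, a human megakaryoblastic leukemia line. The 4 RIP libraries comprised 1 assigned to normal IgG, 1 assigned to anti-RBM15 and a second library labelled for each antibody, and the 3 RNA-seq libraries comprised 1 control and 1 each from cells carrying shRBM15#1 or shRBM15#2. All 7 came from cells at passage 5 with lentiviral transgenes, grown in RPMI-1640 with fetal bovine serum and harvested in exponential phase. The agent in the control cells is not given in the labels.

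The second RIP libraries went against their labels. Over the 443 sites the normal IgG library held 13839 reads and the anti-RBM15 library 367428. The second library labelled normal IgG held 273631 reads over the same sites, and the second library labelled anti-RBM15 held 14545. The second library labelled normal IgG exceeded the assigned normal IgG library at 443 of 443 sites. These 2 libraries were assigned to no group, so each antibody was represented by 1 library. Ratios between antibodies therefore have no replicate check, and their intervals cover counting error only. The site list holds selected regions rather than whole libraries, so the sequencing depth of the RIP libraries is not known from it and a ratio of reads is not corrected for depth.

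The sequences of the largest sites are shown first. The central 30 bases of the 8 sites with the most anti-RBM15 reads are shown in hg19 coordinates, 5' to 3' on the transcribed strand, with every cytosine in capitals, because cytosine content separated the 3'UTR sites from the intronic ones. Each midpoint lay in the annotated 3'UTR of its gene.
ACTB, chr7:5567102-5567131, minus strand: CattCCaaatatgagatgCgttgttaCagg
HSP90AB1, chr6:44221445-44221474, plus strand: tgtttttttCCCtCtCCtgtCCttgtgttg
HSP90AA1, chr14:102547676-102547705, minus strand: tgagCtgtatCttgatgtttagaaaagtat
HNRNPA2B1, chr7:26231678-26231707, minus strand: ttgtttCtttCtagtggtCtttgtaagagt
NPM1, chr5:170837739-170837768, plus strand: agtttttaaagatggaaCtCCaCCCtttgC
LDHA, chr11:18429080-18429109, plus strand: CgCaCCaCtgCCaatgCtgtaCgtaCtgCa
ACTG1, chr17:79477548-79477577, minus strand: atCtgatatCagCaCtggattgtagaaCtt
MCM3, chr6:52129119-52129148, minus strand: CttCattgCaaaagCaCtggCtCatCCgCC

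For contrast, these are the centres of 3 of the 5 intronic sites with the most anti-RBM15 reads, on the strand of their host gene.
VTI1A, chr10:114308196-114308225, plus strand: CCaaagtggtCCaCaaCattCtCCtttCCt
CPNE7, chr16:89654312-89654341, plus strand: aCaCggCCCCCgtgtCaCCCgCgtgtCaCC
CBFA2T3, chr16:88982615-88982644, minus strand: taCaCaCaCCCaCatgtatatgtaagtgCa

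The 3'UTR sites shared the base composition of other 3'UTRs, not that of the intronic sites. In the central 200 bases of the 443 sites the median cytosine content was 17.5%, with quartiles of 14% and 22.25%. Over the 752 intronic sites it was 37%, with quartiles of 31% and 43.625%, so the middle ranges of the classes did not overlap. Windows of the same length tiled over the 3'UTRs of expressed genes with no site had a median of 19% (77117 windows). Thymine (uracil in the RNA) followed the opposite order, at 33.5% in the 3'UTR sites, 31.5% in the windows without a site and 25% in the intronic sites. Guanine was 20% in both kinds of 3'UTR sequence and 12.5% in the intronic sites. The LDHA and MCM3 centres, each with 36.7% cytosine, show that single 30-base stretches varied widely around these medians.

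Of 9 short words searched on the transcribed strand, each counted once per window, a run of 5 thymines (TTTTT) was present in 247 of 443 site centres (55.8%, Wilson 95% interval 51.1 to 60.3). It was present in 50.4% of the windows without a site, in 50.3% of windows in the host 3'UTRs outside the sites and in 12.1% of intronic site centres. The main polyadenylation signal AATAAA was in 12.4% of site centres (interval 9.66 to 15.8), against 17.6% of windows without a site and 18.2% of host windows outside the sites. Its common variant ATTAAA was in 9.71% (interval 7.29 to 12.8), against 13.1% and 13.5%. The tiled windows ran to the ends of the 3'UTRs, where these signals lie, whereas the sites lay mostly near the stop codon.

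The remaining words were close to the share in windows without a site. GGACT, the most frequent form of the motif at which m6A is placed, was in 13.1% of site centres (interval 10.3 to 16.6) and in 13.9% of those windows. Another form of that motif, AGACT, was in 18.7% of site centres and 19.1% of windows. The shares for GGACA were 14.7% and 14.5%. For AGACA they were 18.5% and 20.3%. The AU-rich word ATTTA, linked to messenger RNA decay, was in 34.8% and 34.4%. The Pumilio word TGTANATA was in 2.71% of site centres (interval 1.56 to 4.67) and 4.26% of windows. Each of the site intervals for these 6 words contained the share in windows without a site. These words overlap in part, and a word in a window is a description of the sequence only.

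The 443 sites lay in 406 host genes, of which 370 held 1 site, 35 held 2 and 1, WARS1, held 3. Sites were 347 bases wide at the median, from 164 to 929, compared with 361 for intronic sites. The median 3'UTR site held 19 reads with normal IgG (quartiles 10 and 35, range 0 to 733) and 436 with anti-RBM15 (quartiles 261 and 782, range 55 to 21097). The medians in the second libraries were 326 reads in the one labelled normal IgG and 19 in the one labelled anti-RBM15. In intronic sites the medians of the assigned libraries were 5 and 183 reads, so 3'UTR sites held more reads with both antibodies. They made up 45.5% of the anti-RBM15 reads and 48.8% of the normal IgG reads over all 1515 sites.

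The ratio of anti-RBM15 to normal IgG reads was lower in 3'UTR sites than in intronic ones. The median log2 ratio, after adding a pseudocount of 1 read to each count, was 4.47 in 3'UTR sites (quartiles 4.10 and 5.00), 5.05 in intronic sites, 4.97 in sites outside RefSeq genes and 4.04 in coding sites. Most intronic sites had few normal IgG reads, and at least 10 such reads were present in 75.2% of 3'UTR sites but 26.2% of intronic sites. Among sites with at least 10, the medians were 4.34 (333 sites, quartiles 4.03 and 4.82) and 4.70 (197 sites, quartiles 4.19 and 5.46). The order held, while the middle ranges overlapped. The study also kept only sites with a significant difference in reads, which sites with few reads could reach only at a high ratio. The part of this selection in the difference between the classes cannot be told apart here. With 1 library per antibody no test of this difference was made.

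**Figure D1:**
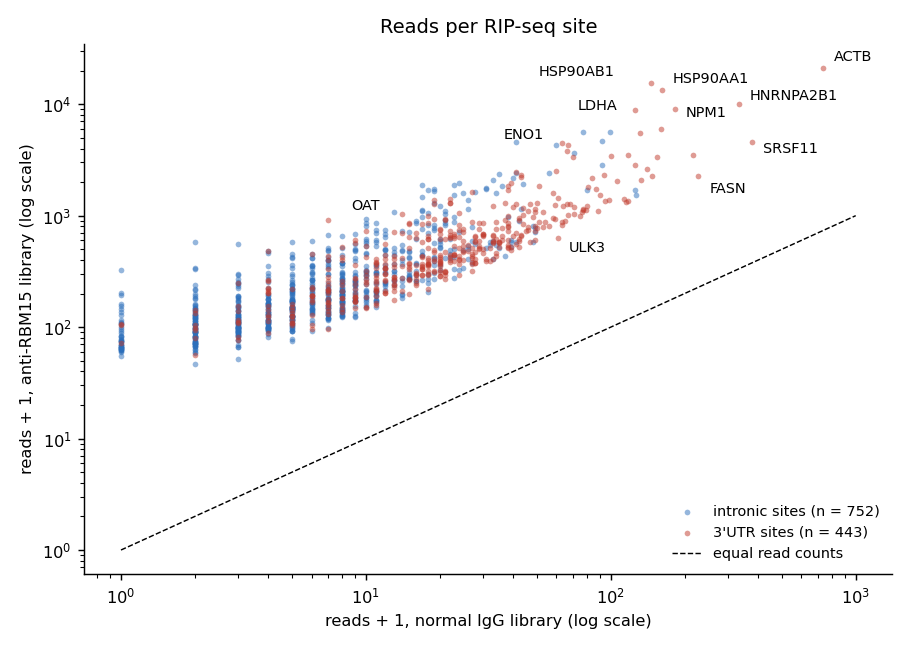
Anti-RBM15 reads (vertical axis) against normal IgG reads (horizontal axis) for each 3'UTR site (red, n = 443) and intronic site (blue, n = 752), both axes logarithmic with 1 read added; the dashed line marks equal counts. Every point lies above the line. The counts are raw, whereas the study selected the list in this direction after correction for library size. The 3'UTR sites extend to the largest counts with both antibodies, up to 733 and 21097 reads for ACTB.

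The largest site lay in ACTB, which encodes cytoplasmic beta-actin. It held 733 reads with normal IgG and 21097 with anti-RBM15, and the second libraries held 13371 (labelled normal IgG) and 868 (labelled anti-RBM15). The anti-RBM15 count was 28.8 times the normal IgG count (exact 95% interval 26.7 to 31.0). ACTB thus had the most reads with both antibodies while its log2 ratio, 4.85, lay between the quartiles of the class.

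The genes for the cytosolic HSP90 chaperones held the next-largest sites and the highest ratios among sites with at least 10 normal IgG reads. HSP90AB1, the constitutive form, had 145 and 15404 reads with normal IgG and anti-RBM15, a ratio of 106 (interval 90.2 to 126). HSP90AA1, the stress-inducible form, had 161 and 13387 reads, a ratio of 83.1 (interval 71.2 to 97.7). The second libraries held 11432 and 179 reads over HSP90AB1 and 10945 and 218 over HSP90AA1, the first of each pair being labelled normal IgG.

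The other 7 of the 10 largest sites lay in genes of several kinds. HNRNPA2B1, an hnRNP that packages nuclear RNA, had 333 and 10140 reads, and NPM1, a nucleolar chaperone of ribosome assembly, had 182 and 8965. LDHA, the lactate dehydrogenase subunit, had 125 and 8911 reads, and the glycolytic enzyme gene ENO1 had 62 and 4498. Their ratios were 30.5, 49.3, 71.3 and 72.5 in that order, so the metabolic genes sat higher than HNRNPA2B1. ACTG1, for gamma-actin, had 160 and 5962 reads, MCM3, for a subunit of the replicative helicase, 130 and 5501, and SRSF11, for an SR-related splicing factor, 377 and 4541. ACTB, ACTG1, HSP90AA1 and several others in this group have processed pseudogenes or close paralogs, and the sources used here do not say how reads shared with copies were counted.

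At the ends of the scale of ratios, sites with at least 10 normal IgG reads differed by more than their counting intervals. After HSP90AB1 and HSP90AA1, the highest ratios were those of OAT, for the mitochondrial ornithine aminotransferase, with 13 and 1037 reads (79.8, interval 46.4 to 150), and of DHX9, for an RNA helicase, with 18 and 1372 (76.2, interval 48.0 to 129). ENO1 followed with an interval of 56.5 to 94.8. The lowest was FASN, for fatty acid synthase, with 227 and 2254 reads (9.93, interval 8.66 to 11.4). ULK3, a kinase gene, had 60 and 635 (10.6), SERBP1, for an mRNA-binding protein, had 114 and 1317 (11.6) at one of its sites, and GRSF1, for a mitochondrial RNA-binding protein, had 26 and 321 (12.3). SRSF11 was also low, with a ratio of 12.0 (interval 10.8 to 13.4). The intervals of these 5 low sites did not reach those of the 5 highest, and all 10 sites were picked for their place in the order.

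Sites in the same gene were mostly close neighbours with unequal read counts. In the 36 genes with more than 1 site, the smallest gap between neighbouring sites was 195 bases at the median and ranged from 32 (IPO5) to 1214 (EIF2S3). The gap is measured on the genome. The site with more anti-RBM15 reads held 1.74 times the reads of the other at the median. The widest spread was in HSPA9, for a mitochondrial HSP70, whose sites held 3378 and 154 anti-RBM15 reads and 69 and 2 normal IgG reads. Log2 ratios within a gene differed by 0.54 at the median and by 1.70 at most, in NNT, for the mitochondrial transhydrogenase, where 1 site rested on 2 normal IgG reads.

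WARS1 encodes cytosolic tryptophanyl-tRNA synthetase, and its 3 sites lay 118, 581 and 896 bases from the stop codon of a 1085-base 3'UTR. They held 12, 11 and 10 reads with normal IgG and 710, 336 and 211 with anti-RBM15, so the anti-RBM15 count was highest at the site that overlapped the stop codon and lowest at the most distal one. The second library labelled normal IgG held 438, 206 and 150 reads in the same order, and the second labelled anti-RBM15 held 24, 17 and 10.

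Most sites lay in the early part of the 3'UTR. The midpoint of 429 sites fell in the 3'UTR of the main transcript model of the host gene, at a median of 192 bases from the stop codon (quartiles 131 and 338). As a fraction of the 3'UTR, from 0 at the stop codon to 1 at the transcript end, the median was 0.23 (quartiles 0.10 and 0.42). The first 20% held 197 of the 429 midpoints (45.9%, Wilson interval 41.3 to 50.7) and the last 20% held 12 (2.80%, interval 1.61 to 4.83). The site reached at least the last base of the stop codon in 206 of the 442 sites with a model (46.6%, interval 42.0 to 51.3). Only 8 midpoints were within 150 bases of the transcript end, among them ALDOA, LDHB and MDH1, and these lay in 3'UTRs of at most 474 bases. Because of the width of the sites, a midpoint could lie at the very end only if the site ran past it.

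The RNA-seq reads of the same 3'UTRs were also concentrated near the stop codon. Midpoints were within 500 bases of it in 353 of 429 sites (82.3%, interval 78.4 to 85.6). The first 500 bases made up 28.1% of the summed 3'UTR length of the 393 host genes, yet they held 69.8% of the control RNA-seq reads of those 3'UTRs, and 70.7% and 70.4% with shRBM15#1 and shRBM15#2. In the 203 hosts with a 3'UTR of at least 1000 bases the first 500 bases held 18.4% of the length, 59.1% of the control reads and 72.3% of the midpoints (interval 66.2 to 77.7). In the 109 hosts with at least 2000 bases the corresponding values were 13.1%, 56.6% and 69.9% (interval 61.3 to 77.3). In each set the share of midpoints near the stop codon exceeded the share of length by a wide margin and the share of RNA-seq reads by a smaller one. The reads were summed over the hosts of a set, so abundant hosts weighed more in the share of reads, whereas each midpoint counted once. The part of this weighting in the smaller margin was not tested. The reads of an exon bin were spread evenly over it for this comparison, and the part that shorter 3'UTR isoforms have in it was not tested.

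**Figure D2:**
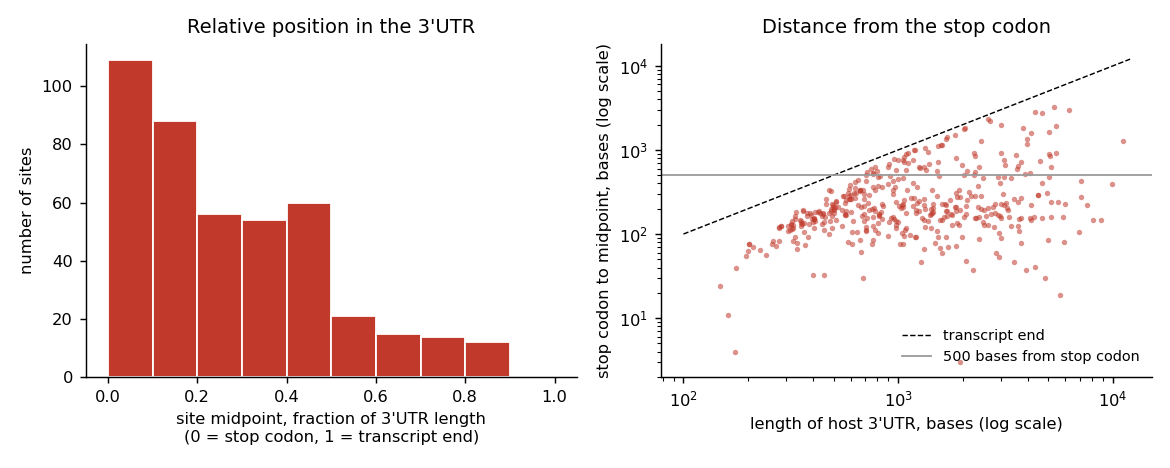
Left, the number of sites (vertical axis) in each of 10 equal parts of the 3'UTR from the stop codon to the transcript end; right, the distance from stop codon to site midpoint against the length of the host 3'UTR, both in bases on logarithmic axes, for the same 429 sites. The counts fall from 109 in the first part to 0 in the last, and most points lie below the line at 500 bases whatever the length of the 3'UTR.

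The host 3'UTRs were not unusually long. Their median length was 1053 bases over 405 genes (quartiles 561 and 2158), against 1385 in 7795 expressed genes without a site and 1638 in 523 hosts of intronic sites. The most distant sites lay more than 1000 bases from the stop codon and numbered 25. One was in RUNX1, the hematopoietic transcription factor gene, whose site was 2835 bases from the stop codon in a 3'UTR of 4334 bases and held 11 and 298 reads with normal IgG and anti-RBM15.

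The 16 sites annotated utr3*, a mark that the sources used here do not explain, were unlike the rest. Of these, 9 began past the annotated end of the host gene, by 21 to 4781 bases, 4 lay inside the gene but in none of its 3'UTRs and 3 in a 3'UTR. Among those past the end were GLIS2, for a zinc-finger factor, with 26 and 1614 reads with normal IgG and anti-RBM15, CCDC97 with 39 and 1183, and the microRNA gene MIR223 with 15 and 237. Their host genes had a median of 14.3 CPM (read counts scaled to a library of 1000000 reads) in control RNA-seq, against 219 for hosts of the utr3 sites. The median anti-RBM15 count was 232.5 against 444.

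The hosts of 3'UTR sites were among the most abundant messenger RNAs of the cells. Their median in the control library was 208 CPM over 404 genes (quartiles 110 and 429), against 52.2 CPM for 538 hosts of intronic sites and 2.57 CPM for all 24887 genes tested. In RPKM, the same kind of count divided by the exon length in kilobases, the medians were 41.2, 7.91 and 1.28. The genes tested were not limited to protein-coding genes. When genes were split into 10 deciles of CPM, the top decile, which began at 92.5 CPM, held 317 of the 404 hosts, and 12.7% of its genes had a 3'UTR site. By RPKM, a scale chosen after the CPM result was seen, the top decile held 290. The hosts of intronic sites spread further, with 165 in the top decile by CPM, 139 in the second and 114 in the third.

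**Figure D3:**
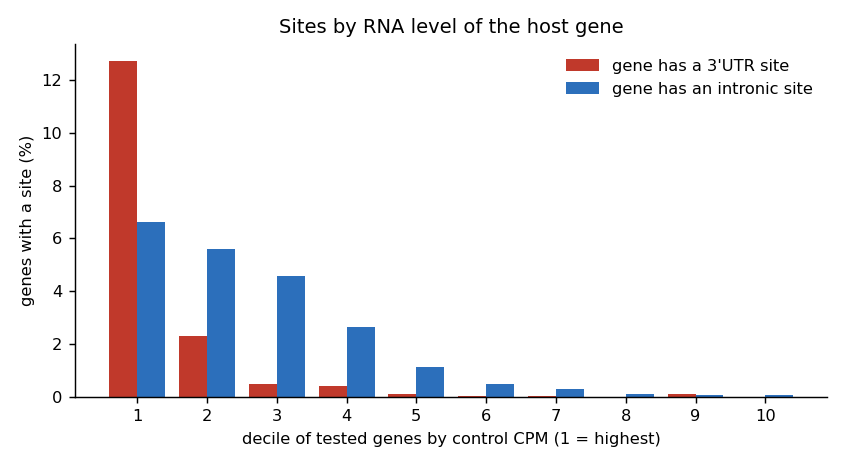
Percentage of genes with a 3'UTR site (red bars) or an intronic site (blue bars) in each decile of the 24887 tested genes, ordered by CPM in the single control RNA-seq library. The red bars fall from 12.7% in the top decile to 2.29% in the second and 0.482% in the third, while the blue bars fall from 6.63% to 5.58% and 4.58%.

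Among these selected sites, read counts followed the level of the host with both antibodies, but the ratio did not. Across 441 sites with a counted host, Spearman's rho between anti-RBM15 reads and control CPM was 0.57, and between normal IgG reads and control CPM it was 0.51. Between the log2 ratio and control CPM it was 0.01. These are descriptions across sites, which share libraries and in part host genes. The sites were also kept for a significant difference between antibodies, which sites with few reads could reach only at a high ratio. The rho for the ratio therefore cannot show that ratio and host level are unrelated. Between the libraries themselves, rho over the 443 sites was 0.87 for anti-RBM15 and normal IgG, 0.98 for anti-RBM15 and the second library labelled normal IgG, and 0.91 for normal IgG and the second labelled anti-RBM15.

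Groups of host genes differed in how many of their members held a site. For reference, 404 of the 24887 tested genes (1.62%) and 12.7% of the top CPM decile held one. The tested genes were not limited to protein-coding genes, whereas the groups were, so these shares are not like for like. No test of any group against them was made. Glycolysis and lactate genes were among the densest, with a 3'UTR site in 10 of 17 tested genes, so not every gene of the group held one. Those with a site included HK1, for the first enzyme (200 anti-RBM15 reads), ALDOA (1041), TPI1 (763), PGK1 (1850), ENO1 (4498), PKM (3357) and LDHA (8911). Their sites had a median of 1769 anti-RBM15 and 39.5 normal IgG reads. Pyruvate dehydrogenase and TCA cycle genes held sites in 13 of 28, with lower counts, from 183 (PDHX) to 966 (ACLY, for ATP citrate lyase). Of 97 genes whose symbols place them in oxidative phosphorylation or its assembly, 8 had a site, among them the ATP synthase subunit gene ATP5F1B with 1437 reads.

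Among splicing regulators, sites lay in 16 of 30 hnRNP genes and partners, 10 of 22 SR and SR-related genes, 7 of 18 genes of the U2 snRNP and U2AF and 7 of 36 other spliceosome genes (19.4%). SF3B1, the largest SF3B subunit, had 45 and 1108 reads with normal IgG and anti-RBM15, and HNRNPH1 had 3535 anti-RBM15 reads. SRSF11 and SRSF3 each held 2 sites. The median log2 ratio was 3.96 over the SR sites and 4.10 over the hnRNP sites, below the 4.47 of all 443, and 5.16 over the glycolysis sites. These medians rest on 13, 17 and 10 sites.

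Actin cytoskeleton genes held sites in 20 of 36, with 24 sites from 142 anti-RBM15 reads (NCKAP1L, of the WAVE complex) to the 21097 of ACTB. They included CDC42, for a small GTPase of actin dynamics (13 and 694 reads), RHOA at 983 and 881 anti-RBM15 reads and CFL1, for cofilin, at 1740. Chaperone genes held sites in 13 of 31, among them HSPD1, for mitochondrial HSP60, with 3775 reads. Aminoacyl-tRNA synthetase genes had sites in 8 of 17, nuclear transport genes in 10 of 31, DNA replication genes in 11 of 31 and 14-3-3 genes in 3 of 6. RAN, the GTPase that drives nuclear transport, had 2520 anti-RBM15 reads.

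A high RNA level alone did not go with a site in the ribosomal protein genes. None of 83 genes with cytosolic ribosomal protein symbols held a 3'UTR site, although their median control level was 848 CPM and 239.6 RPKM. Among the 100 protein-coding genes with the highest control CPM, 38 were ribosomal protein genes and 28 had a 3'UTR site. Among the 100 with the highest RPKM, 39 were ribosomal protein genes and 16 had a site. The ribosomal protein 3'UTRs were short in the main gene models, with a median of 180 bases against 1053 for the hosts, and 43 of 83 were at least as long as the narrowest 3'UTR site of 164 bases. Translation factor genes held sites in 7 of 49 (14.3%), led by EEF1A1, for the elongation factor that delivers tRNA, with 4281 reads. That share was close to the 12.7% of the top CPM decile. No 3'UTR site lay in the 17 tested genes for m6A writers, erasers and readers, a list that includes RBM15. Their median level was 53.6 CPM, within the second decile, where 2.29% of genes had a site. A count of 0 in a list of this size was close to that share. Of 34 megakaryocyte and erythroid genes, STAT5A, for a cytokine-activated transcription factor (9 and 295 reads), and RUNX1 had a site, and of 21 poly(A) site factors only XRN2, for the nuclear exonuclease of termination (12 and 348).

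**Figure D4:**
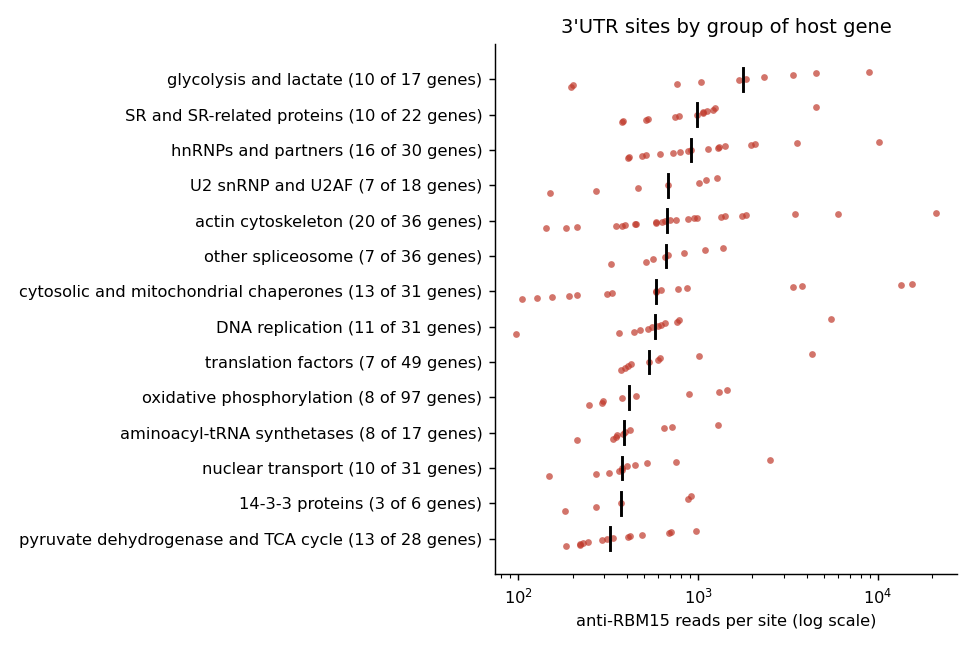
Anti-RBM15 reads per 3'UTR site (horizontal axis, logarithmic) for each group of host genes with at least 3 sites; points are sites, black bars are group medians, and labels give the number of genes with a site of those tested. Glycolysis and lactate genes have the highest median, 1769 reads, and the actin cytoskeleton genes span 142 to 21097.

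Further genes that the study discusses held single sites of differing size, with 200 to 1162 anti-RBM15 reads. H2AZ1, for a histone variant, had 43 and 1162 reads with normal IgG and anti-RBM15, BRD9, for a bromodomain protein of chromatin remodelling, had 29 and 501, and DEK, for a chromatin protein, had 22 and 455. HK1 had 6 and 200. In each case the anti-RBM15 count lay above the normal IgG count, as throughout the list. Of the 406 hosts, 16 also held an intronic site, among them RUNX1, U2AF2 and PRKDC, and 6 also held a site in coding sequence.

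RNA-seq after RBM15 knockdown asked whether the host messages changed when RBM15 was reduced. RBM15 itself was at 80.2 CPM in the control and at 43.7 and 40.7 CPM with shRBM15#1 and shRBM15#2. The log2 fold change was -0.93 ± 0.23 (SE, 1 control and 2 knockdown libraries), with an adjusted p of 0.091 in edgeR's quasi-likelihood test. Reads on genes ranged from 41629454 to 53230029 per library. Megakaryocytic and erythroid markers ranged widely in the control, from ITGA2B at 919, TAL1 at 236 and GATA1 at 71.7 CPM to PF4 at 0.061 and GP9 at 0.040. CD3E, ALB and COL1A1 were at 0.344 CPM or lower in the control and at most 2.81 in any library, whereas the epithelial marker EPCAM was at 74.9, 54.5 and 49.3 CPM. The part of these levels in the results was not tested.

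Few host genes were called. RBM15 itself was not called at an adjusted p under 0.05 (0.091 in edgeR), so a host that was not called may still have changed. At an adjusted p under 0.01 in edgeR, 2 of 404 hosts were called, both lower, which is 0.495% against a background of 0.346% for all 24887 genes (86 called). The share of hosts was close to the background at this threshold. At an adjusted p under 0.05, 9 hosts were called (2.23%), 6 lower and 3 higher, against a background of 1.74% (432 genes). DESeq2 called 10 of 401 hosts at 0.01, 4 higher and 6 lower, where it called 539 of the 15719 genes that it gave an adjusted p (3.43%). Without the count filter edgeR called 8 of 405 hosts and 1.5% of all genes, and with median-of-ratios size factors it called 4 hosts and 0.767% of all genes. The p-values rest on 1 control library and 2 knockdown libraries with different shRNAs. Only those 2 give a spread within a group, and the edgeR fit drew the variance of each gene largely from the trend over all genes. The p-values and standard errors are therefore no measure of the spread of single genes between replicates.

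The 2 called hosts were WARS1 and VAT1, for a vesicle amine transport protein. WARS1 was at 2506 CPM in the control and at 693 and 598 with the shRNAs, a log2 fold change of -1.96 ± 0.22 (SE) with an edgeR adjusted p of 0.0055. VAT1 was at 314 CPM and at 85.4 and 92.2, a change of -1.82 ± 0.21 with an adjusted p of 0.0067. Both knockdown libraries lay far below the control for each gene. The VAT1 site overlapped the stop codon and held 16 and 292 reads with normal IgG and anti-RBM15.

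Called at 0.05 alone were SEC63, AARS1, SHMT2 and MTHFD1L, all lower, and HSP90AA1, PRDX1 and HSPH1, all higher. SEC63, of the endoplasmic reticulum translocon, fell from 149 to 50.3 and 51.6 CPM, and AARS1, for alanyl-tRNA synthetase, from 675 to 308 and 257. The mitochondrial one-carbon enzyme genes SHMT2 and MTHFD1L fell from 821 to 383 and 328 CPM and from 298 to 114 and 145 CPM. HSP90AA1 rose from 769 CPM to 2294 and 2281, with a log2 fold change of 1.57 ± 0.24 and an edgeR adjusted p of 0.016. PRDX1, for a peroxiredoxin, rose from 306 to 705 and 754 CPM, and HSPH1, for an HSP110 chaperone, from 97.9 to 222 and 254. In all 9 genes both knockdown libraries lay on the same side of the control.

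As a class the hosts moved little. The median log2 fold change of the 404 hosts was -0.10 (quartiles -0.30 and 0.17), against 0.02 over all genes tested and -0.19 over the top decile of control CPM. With each shRNA alone the host medians were -0.14 and -0.02, and 241 of the 404 fitted values were below 0. Among the groups, the chaperone hosts had a median of 0.46 and the aminoacyl-tRNA synthetase hosts a median of -0.66, and the medians over all tested genes of these lists were 0.36 and -0.79. No list other than the synthetases, through WARS1, had a host called at 0.01, and among all tested members of the lists the other calls were 5 megakaryocyte and erythroid genes, HBA2, HBG1, HBG2, ALAS2 and TUBB1, all higher and none with a 3'UTR site. RUNX1 was at 128 CPM in the control and at 57.6 and 70.5 with the shRNAs (edgeR adjusted p of 0.078).

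**Figure D5:**
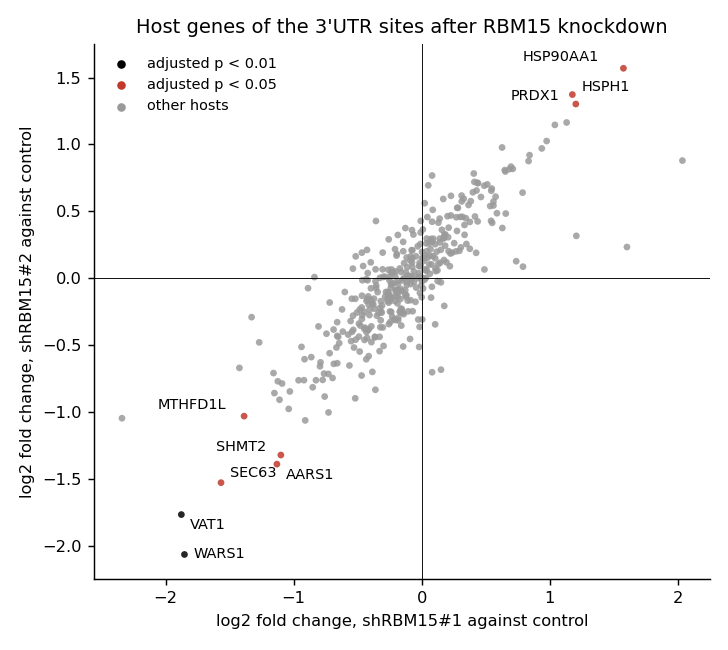
Log2 fold change of each host gene with shRBM15#1 (horizontal axis) and with shRBM15#2 (vertical axis), each against the same single control library, for 402 host genes. Both axes share the control, so their likeness is in part built in; the black points are the 2 genes called at an adjusted p under 0.01, the red points the other 7 called at 0.05, and most hosts lie close to 0.

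The use of the exons under the sites was compared with that of the rest of each gene. For 427 sites an exon bin of the host overlapped the site, giving 418 distinct bins, of which 408 passed the count filter of 30 reads. The relative log2 change of a bin is its change after knockdown beyond that of its gene. None of the 408 bins was called by edgeR's diffSpliceDGE at p under 0.05 with a change above 1.2 times, and 0 had an unadjusted p under 0.05, against a background of 1.45% (3392 of 234192 bins called). Among bins with at least 300 reads, 0 of 397 site bins and 0.88% of all 83596 were called. At an adjusted p under 0.05, diffSpliceDGE called 0 site bins and 48 of all bins (0.0205%). DEXSeq was not run, so the count of 0 rests on this tool. The test called few bins of any kind, and the control was a single library. A count of 0 therefore does not show that use of these exons was unchanged.

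The bins under the sites were large, with a median of 1028.5 control reads against 68 over all bins tested. They held 8.40% of the reads of their gene at the median. The median relative log2 change was 0.02 (quartiles -0.04 and 0.08), against 0.01 over all bins. The smallest p was 0.11, in RPAIN, for a protein that imports replication protein A, where the bin under the site held 16 reads in the control and 20 and 28 after knockdown, or 0.654%, 1.21% and 1.19% of the reads of the gene. Next was PSIP1, for a chromatin-bound coactivator, whose last bin held 24.7% of the reads of the gene in the control and 18.9% and 18.8% after knockdown (relative log2 change -0.39, diffSpliceDGE p of 0.12). EFTUD2, for a U5 snRNP GTPase, and TRA2B, for an SR-like splicing activator, had relative changes of 0.36 and 0.30, and a bin of NNT had -0.30. None of these 5 changes passed the test, and they are given as the smallest p-values of the set.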

How the data were processed

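The deposited site table gave raw read counts for the 4 RIP libraries at 1515 sites, with hg19 coordinates and a RefSeq annotation. Per the methods of the study, the authors trimmed and aligned paired-end reads (STAR) and took peaks from coverage profiles of every RIP library (filter bandwidth 300). They tested each peak with DESeq, corrected for library size, and kept those with significantly more reads in the anti-RBM15 samples. The deposited RNA-seq files gave unstranded raw counts per exon bin (Ensembl annotation of GRCh37). The submitters' processing notes name HTSeq 0.6.0 and bedtools 2.17.0. Lines naming no gene held 23.2% to 32.0% of RNA-seq reads and were left out. The fold changes, p-values and false discovery rates of the authors' own comparisons were not used.

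Host genes were matched through gene IDs to RefSeq symbols and GENCODE v44 lifted to GRCh37, and 1 host, CYFIP1, had no counted gene. Site ratios used a pseudocount of 1. Bin counts were summed per gene, filtered at 30 reads, scaled with TMM and tested with the quasi-likelihood test of edgeR 4.0.16, exon bins with diffSpliceDGE, and p-values adjusted by Benjamini-Hochberg. DESeq2 1.42.0 was the alternative. CPM are counts per 1000000 reads after TMM scaling, and RPKM are unscaled counts per kilobase of exon bins and 1000000 reads. Scripts were tested on simulated data. The main 3'UTR model was the MANE Select transcript, otherwise the canonical, principal or longest coding one. Expressed genes had at least 10 CPM. Share intervals are Wilson, ratio intervals exact conditional binomial, both 95%.

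The members and the 18 gene lists were chosen with earlier results of these data known. Named genes were the 10 sites with most anti-RBM15 reads, the 5 highest and 5 lowest ratios among sites with at least 10 normal IgG reads, genes with more than 1 site, members of the lists, genes the study named, called hosts and the 5 site bins with the smallest p. Genes on chromosome Y were not named. The alternatives tried are given in the closing section. A few marker levels and 1 intronic sequence are not reported here.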

Additional observations from a re-analysis of the deposited data

Results flagged for a closer look

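Over the 3'UTR sites, the normal IgG library held 13839 reads, with a median of 19 per site. Of the libraries assigned to no group, the second labelled normal IgG held 273631 reads, with a median of 326 per site. The second labelled anti-RBM15 held 14545, with a median of 19, the same as normal IgG. These sums are not corrected for depth. The 2 unassigned libraries entered no comparison between antibodies, and which antibody each received was not tested.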

How the results depend on the processing

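No paired analysis was possible because the control has 1 library and the labels give the knockdown and control libraries no shared replicate number. The count of called hosts was 2, and it was 4 with median-of-ratios size factors, 8 with no filter on low counts, 10 with DESeq2 and 9 at an adjusted p under 0.05; WARS1 and VAT1 were called in each. It was 2 with utr3 sites alone or with intron.utr3 sites added. The median log2 fold change of the hosts moved from -0.10 to -0.22 with no filter, and ranged from -0.14 to -0.02 with 1 knockdown library left out, which leaves no test. The count of called site bins was 0 under all 5 alternatives. The median log2 ratio of 4.47 was 4.12 with a pseudocount of 5 and 4.34 over sites with at least 10 normal IgG reads. The median position of 0.23 was 0.42 in the shortest annotated 3'UTR and 0.45 at the downstream end of the site. The median host level of 208 CPM was 41.2 in RPKM. For all 9 words, the difference between the share in sites and in windows moved by less than the margin of the site interval with 100-base windows and with host windows. The window share of ATTAAA, which lay outside the site interval at 200 bases, lay inside it at 100 (6.78% against 3.67 to 7.93). Whole sites gave no such difference, since windows without a site have no equal width. The causes of these moves were not tested. The number of hosts in the top decile was 317 by CPM and 290 by RPKM, the latter chosen after seeing the data. Depth limits single ratios: 110 sites had fewer than 10 normal IgG reads.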
